A study of Mus musculus with 7 samples.

Results

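The genes described here are 10 genes of amino acid uptake and serine synthesis, taken by their symbols from the 26607 genes listed in each expression file. They are the transporter genes Slc7a5, Slc3a2, Slc38a2, Slc1a4 and Slc1a5, the serine synthesis genes Phgdh, Psat1 and Psph, and the mitochondrial one-carbon genes Shmt2 and Mthfd2. All 10 were above 0 in all 7 libraries, and they are 10 of the 19144 genes above 0 in at least 1 library, which were the genes tested. The libraries are poly(A)-selected RNA of C2C12 myotubes, the contractile cells that this mouse myoblast line forms when serum is lowered. The control group (n = 3, numbered 1, 3 and 4) had no stimulation, and the EPS group (n = 4, numbered 1 to 4) was exposed to electrical pulse stimulation, which makes cultured myotubes contract. Per the study's methods the cells differentiated for 3 days, received EPS for 24 h and rested for 1 h. Both groups are 1 cell line kept in a dish with no nerve, blood supply or other tissue, and no genotype differs between them.

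Muscle cells take in amino acids through carriers of the plasma membrane that mostly work as exchangers. LAT1, encoded by Slc7a5, brings in leucine and other large neutral amino acids in exchange for glutamine, and only reaches the membrane bound to the heavy chain encoded by Slc3a2. Serine can also be made from a glycolytic intermediate by the enzymes encoded by Phgdh, Psat1 and Psph, and its side-chain carbon then enters the folate cycle in mitochondria through the enzymes encoded by Shmt2 and Mthfd2. Many of these genes are textbook targets of ATF4, the transcription factor of the amino acid and integrated stress response, and leucine uptake is known as an input to the growth kinase complex mTORC1.

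Library totals were 16616917 to 22120641 reads in the control group and 18830229 to 21892568 in the EPS group. Control replicate 4 stood apart: only 359 of its genes held between 1 and 5 reads, where the remaining 6 libraries had 2670 to 3181 such genes, and it listed 14014 genes above 0 where they listed 16144 to 16984. Many of the values below are also given without this library. The 10 skeletal muscle markers summed to 11308 to 16317 CPM (reads on a gene, scaled to the same total over the listed genes in every library) in the control group and 9463 to 12623 CPM in the EPS group, while the blood and endothelium markers summed to 1.17 to 3.21 CPM and 1.44 to 2.34 CPM. The 9 fibroblast and adipocyte markers tested summed to 3944 to 5255 CPM in the control group and 3469 to 4619 CPM in the EPS group. At an unadjusted p under 0.05 by limma 1 of them was higher (Pdgfra, log2 fold change 0.70) and 2 were lower (Lum, -0.89, and Dpt, -0.47), against 8.4% and 3.21% of all genes tested, and their part in the values below was not tested. With control replicate 4 left out there were also 1 higher, Pdgfra (0.43), and 2 lower, Dpt (-0.54) and Dcn (-1.11, unadjusted limma p of 0.0495). In that fit Lum had an unadjusted limma p of 0.0567. Dpt was -0.24 without control replicate 3. The 11 markers of cycling myoblasts summed to 480 to 625 CPM in the control group and 702 to 1569 CPM in the EPS group, and 6 of them were higher at an unadjusted p under 0.05 by limma, or 2 without control replicate 4, where 8.4% of all genes were higher with all libraries. The largest changes among the muscle markers were Myog (-1.07), Ckm (-0.63) and Mb (-0.55), with overlapping groups, and without control replicate 4 they were -0.47, -0.24 and -0.15. Those among the cycling markers were Ccnb1 (1.38), Mki67 (1.27) and Cdk1 (0.94), also with overlapping groups. Over the fits that leave out 1 library they were 1.02 to 1.84, 1.01 to 1.63 and 0.63 to 1.25. Dcn of the fibroblast list was at -0.89 and Cd68 of the blood list at 0.41, both with overlapping groups. In bulk RNA, fewer cells of a type and less RNA per cell cannot be told apart, and the part of the cycling cells in the values below was not tested.

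The promoters of 2 of the genes are shown because they mark the opposite ends of what was found below among the genes with a promoter sequence: in limma with all libraries Mthfd2 had the lowest log2 fold change among them, and Slc1a4 the highest. Phgdh was lower than Mthfd2 without control replicate 1 or 3 and with edgeR and DESeq2 on all libraries. Slc38a2 was higher than Slc1a4 without control replicate 1, EPS replicate 3 or EPS replicate 4. Each sequence runs 5′ to 3′ from 250 bases before the RefSeq start site to 50 bases from it onwards, on GRCm38.p6, and capitals mark a match to a searched motif.
Slc1a4 promoter, chr11:20332664-20332963, minus strand: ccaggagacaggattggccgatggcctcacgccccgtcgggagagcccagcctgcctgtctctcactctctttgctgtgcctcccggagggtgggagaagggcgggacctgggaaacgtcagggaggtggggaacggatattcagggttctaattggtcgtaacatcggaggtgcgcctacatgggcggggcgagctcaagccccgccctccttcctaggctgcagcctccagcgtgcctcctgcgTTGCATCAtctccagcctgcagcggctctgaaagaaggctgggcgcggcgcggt
Mthfd2 promoter, chr6:83317555-83317854, minus strand: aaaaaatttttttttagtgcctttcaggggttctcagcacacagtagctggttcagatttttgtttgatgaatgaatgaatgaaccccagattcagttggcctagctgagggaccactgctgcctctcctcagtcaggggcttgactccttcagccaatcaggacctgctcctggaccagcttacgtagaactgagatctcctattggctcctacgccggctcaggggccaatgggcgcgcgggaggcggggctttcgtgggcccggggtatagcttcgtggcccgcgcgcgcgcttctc

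The 9 RefSeq promoter sequences of 8 of the 10 genes were searched on both strands for 4 motifs. The C/EBP-ATF response element TGATGCAA, the site type that ATF4 binds, was in the Slc1a4 promoter alone among them. There it reads TTGCATCA on the gene's strand and covers positions -4 to 3, counted from the start site as 0, and 0.895% of all 32851 promoters of that length hold it. The relaxed form TGATGNAA, which includes the strict one, was found in these 8 genes only at that same Slc1a4 site, and 3.97% of all promoters hold it. The antioxidant response element TGACNNNGC was in the promoters of Slc38a2 (TGACGCGGC), Phgdh (GCGGAGTCA) and Psph (GCGACGTCA), and in 12.4% of all promoters. The E-box CACGTG was in none of the 9 and in 7.15% of all. A match describes letters in this window, and the absence of one says nothing about a site elsewhere.

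The comparison of EPS with control asks whether the stimulated myotubes held more or less mRNA of each gene. None of the 10 genes passed the study's kind of threshold, an unadjusted P under 0.01 with more than a 2-fold change, in limma on log2(CPM + 1). That threshold called 185 of the 19144 genes higher (0.966%) and 84 lower (0.439%). At a Benjamini-Hochberg adjusted p under 0.05, limma called 0 of the 10 and 27 genes in all (0.141%). Of the 10, 2 were lower and 0 were higher at an unadjusted p under 0.05, where all genes had 3.21% lower and 8.4% higher. The same 2 genes, Slc7a5 and Mthfd2, were lower in every EPS library than in every control library, an order found in 2.85% of all genes, and 0 of the 10 had every EPS library above every control library, an order found in 7.76%. On recovered reads, edgeR with TMM called 1 of the 10 at an adjusted p under 0.05 (Slc7a5), where it called 290 genes in all (1.51%), and DESeq2 called both, where it called 497 in all (3.39% of the genes it gave an adjusted p). With control replicate 4 left out, edgeR called 0 of the 10 and 0.545% of all genes, and 2 of the 10 were lower at an unadjusted p under 0.05, while DESeq2 was not run without that library. At an unadjusted p under 0.05, 4 of the 10 were lower with each tool, Psph and Phgdh being the others, where all genes had 5.95% lower with edgeR and 5.42% lower with DESeq2. The median log2 fold change of the 10 genes was -0.20 and 3 of them were above 0. The genes of like level, those with a mean CPM between the lowest and the highest of the 10, had a median of 0.099 over 9155 genes, with 64.6% above 0.

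The deposited scale has a shift of its own: the median log2 fold change of the 12256 genes with a mean of at least 1 CPM was 0.10, and it was -0.0048 after median-of-ratios scaling. Relative to that shift each of the 10 values below is lower by about as much. Only Psat1, whose value was near 0, changed sign with the scaling among the 10.

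**Figure D1:**
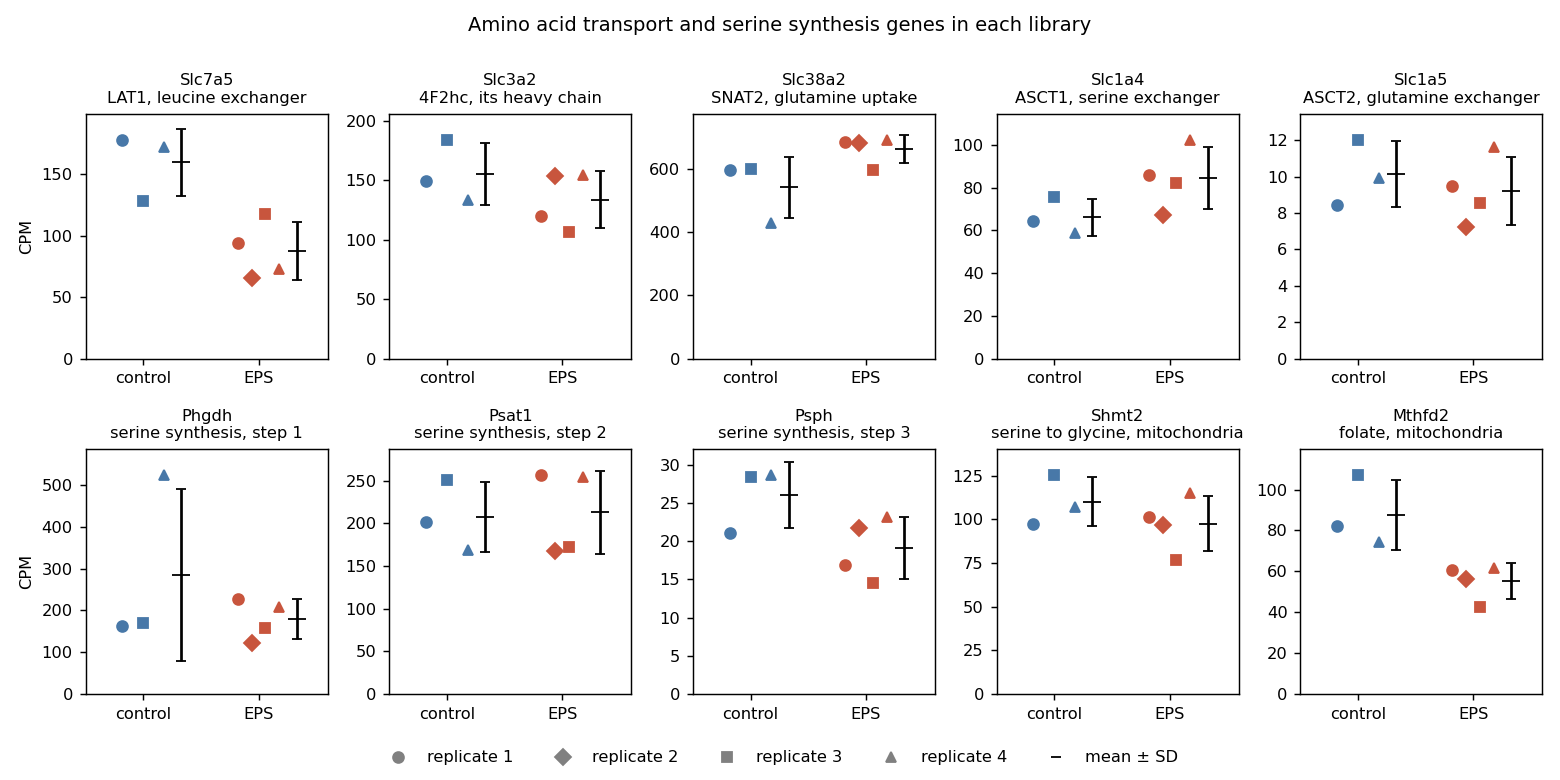
CPM of each of the 10 genes in the 3 control libraries (blue) and the 4 EPS libraries (red), with the marker shape giving the replicate number and the black bar the mean ± SD. Every vertical axis starts at 0. The groups separate for Slc7a5 and Mthfd2 and overlap for the other 8 genes, and Phgdh reaches 524 CPM in control replicate 4.

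Slc7a5, which encodes the leucine exchanger LAT1, had 178, 128 and 172 CPM in control replicates 1, 3 and 4. It had 93.9, 65.7, 117 and 72.8 CPM in EPS replicates 1 to 4. Every EPS library lay below every control library, with EPS replicate 3 the nearest to the control group. The means were 159 ± 27.1 CPM (SD, n = 3) and 87.5 ± 23.3 CPM (SD, n = 4), so the control level was 1.84-fold the EPS level on the log2(CPM + 1) scale. The log2 fold change was -0.88 (SE 0.22, 95% interval -1.39 to -0.37), with an unadjusted limma p of 0.00365 and an adjusted p of 0.171. The exact two-sided permutation test over the 35 possible assignments of the group labels gave p = 0.0571. That is the smallest p this two-sided test can give with 3 against 4 libraries, so no gene or ratio could reach a p under 0.05 in it. Without control replicate 4 the log2 fold change was -0.82 and its limma p 0.0124. Without EPS replicate 3 it was -1.03 and without control replicate 3 it was also -1.03, both past 2-fold with a P under 0.01. With edgeR on the recovered reads, which ranged from 1349 to 3809 for this gene, the log2 fold change was -0.96 with an adjusted p of 0.0492, and with DESeq2 -0.97 with an adjusted p of 0.0182. The edgeR value without control replicate 4 was -0.89 with an adjusted p of 0.226, and without the TMM factors it was -0.87 with an adjusted p of 0.0678.

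Slc3a2 encodes the heavy chain CD98 that carries LAT1 and related light chains to the membrane. It had 149, 184 and 133 CPM in the control libraries and 120.2, 153, 107 and 155 CPM in the EPS libraries, and the groups overlapped. Its log2 fold change was -0.22 (95% interval -0.65 to 0.21, limma adjusted p = 0.707), and ranged from -0.33 without control replicate 4 to -0.09 without control replicate 3. In the ratio of Slc7a5 to Slc3a2 within a library a scaling factor common to all genes cancels, apart from the 1 added to each CPM. Quantile normalization, which moves genes by unequal amounts, does not cancel in it. The log2 ratio was 0.25, -0.52 and 0.37 in the control libraries. In the EPS libraries it was -0.35, -1.21, 0.14 and -1.08. The difference of -0.66 had p = 0.229 in the exact two-sided permutation test, or 0.457 adjusted over the 6 ratios tested. No ratio could reach a p under 0.05 in that test, so it cannot decide whether the 2 genes changed differently. Control replicate 3 and EPS replicates 1 and 3 lay inside the other group's range. The change of Slc7a5 was not shown to differ from that of its partner chain.

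Slc38a2, which encodes the sodium-coupled transporter SNAT2 for small neutral amino acids, had 9481 to 14691 reads per library, the most of the 10 genes in 6 of the 7 libraries. In control replicate 4 Phgdh had more, 11591 against 9481. It had 596, 599 and 429 CPM in the control libraries and 684, 682, 596 and 692 CPM in the EPS libraries. Control replicate 4 was the lowest of the 7, and EPS replicate 3 lay within the range of the control group. The log2 fold change was 0.31 (95% interval -0.16 to 0.78, limma adjusted p = 0.623), and 0.15 without control replicate 4. Slc1a4, which encodes the serine and alanine exchanger ASCT1, had 64.2, 75.7 and 58.7 CPM in the control libraries. It had 86.0, 67.3, 82.2 and 102 CPM in the EPS libraries, with only EPS replicate 2 inside the control range. Its log2 fold change of 0.34 (95% interval -0.06 to 0.73, limma adjusted p = 0.5) was the highest of the 10 genes with all libraries. Slc38a2 was higher without control replicate 1 (0.39 against 0.32), EPS replicate 3 (0.36 against 0.35) or EPS replicate 4 (0.29 against 0.24). With edgeR and TMM without control replicate 4 Slc1a4 was 0.19.

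Slc1a5 encodes ASCT2, a glutamine exchanger best known from dividing cells, and was the lowest of the 10 genes, with 145 to 220 reads per library. Its CPM were 8.45, 12.0 and 9.95 in the control libraries and 9.50, 7.21, 8.54 and 11.6 in the EPS libraries, with overlapping groups and a log2 fold change of -0.13 (limma adjusted p = 0.869), which ranged from -0.24 without control replicate 1 to -0.01 without control replicate 3. The closely related Slc1a4 and Slc1a5 were set against each other within each library. The log2 ratio of Slc1a4 to Slc1a5 was 2.79, 2.56 and 2.45 in the control libraries. In the EPS libraries it was 3.05, 3.06, 3.12 and 3.03. All 4 EPS libraries thus lay above all 3 control libraries and within a narrow range, SD 0.040 against 0.17 in the control group. The difference of 0.47 had p = 0.0571 in the exact two-sided permutation test, or 0.343 adjusted over the 6 ratios. The unadjusted value is the smallest that test can give with 3 against 4 libraries.

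**Figure D2:**
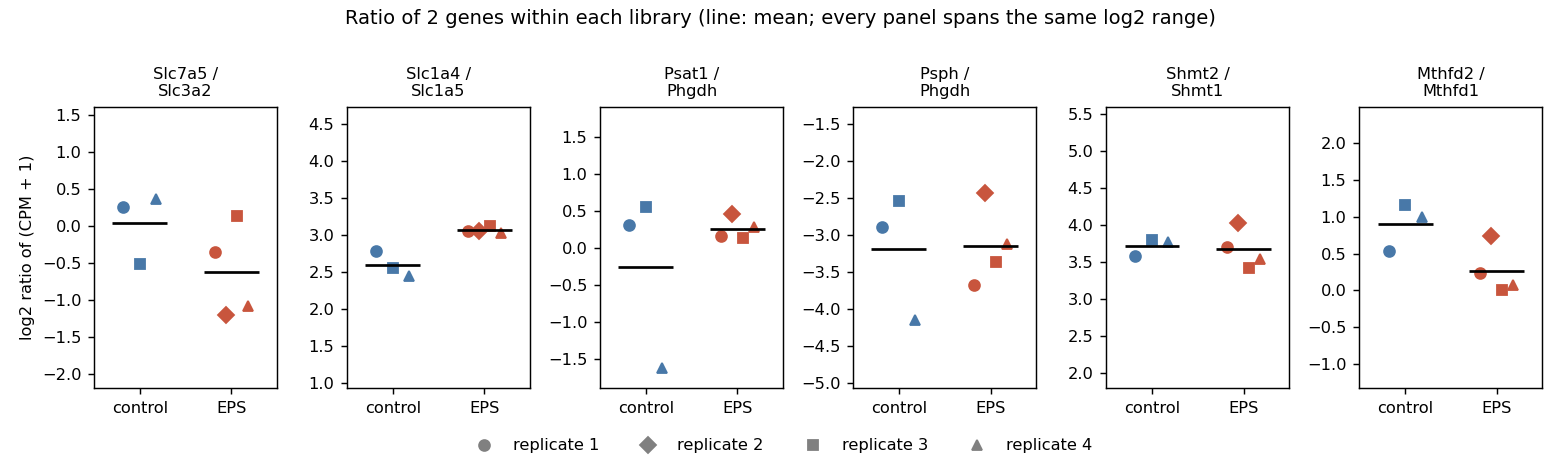
Log2 ratio of the (CPM + 1) of 2 genes within each library for the 6 ratios tested, with control libraries in blue, EPS libraries in red, the marker shape giving the replicate number and the line the group mean. Slc1a4 to Slc1a5 is the only ratio of the 6 whose groups do not overlap, and control replicate 4 is the low point of both ratios to Phgdh.

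Phgdh encodes the dehydrogenase that takes the first step from glycolysis towards serine, and its result rested on 1 library. It had 162 and 170.2 CPM in control replicates 1 and 3 and 524 CPM in control replicate 4. The EPS libraries had 228, 122, 157 and 209 CPM, on both sides of the first 2 control values. The log2 fold change was -0.48 with a wide 95% interval of -1.42 to 0.45 (limma adjusted p = 0.707). Without control replicate 4 it was 0.066, with the opposite sign. Phgdh has 11 near copies among the annotated transcripts, at 95% identity or more over at least 100 bases, of which 1 is listed in the files, at up to 0.060 CPM. How reads shared between such copies were counted is not given in the sources used here.

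Psat1 encodes the aminotransferase of the next step. It had 202, 251 and 169 CPM in the control libraries and 256, 168, 173 and 254 CPM in the EPS libraries. Its EPS values fell into a higher pair, replicates 1 and 4, and a lower pair, replicates 2 and 3, which spanned the control range. The log2 fold change was 0.03 (95% interval -0.48 to 0.53, limma adjusted p = 0.963), and its sign changed in 8 of 18 alternatives. Psph encodes the phosphatase that releases serine. It had 21.0, 28.4 and 28.7 CPM in the control libraries and 16.9, 21.7, 14.5 and 23.2 CPM in the EPS libraries, where control replicate 1 was the overlapping value. Its log2 fold change was -0.44 (95% interval -0.94 to 0.06), with a limma adjusted p of 0.491. Psph shares 452 exon bases with Cct6a, a chaperonin gene on the opposite strand with 140.4 to 287 CPM, and whether counting used strand is not given in the sources used here, so the Psph value is uncertain.

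The signs of the 3 serine synthesis genes depended on the scaling of Psat1 and on control replicate 4. They differed on the deposited scale and were all negative after median-of-ratios scaling, at -0.60 for Phgdh, -0.084 for Psat1 and -0.55 for Psph, as they were after quantile normalization and with edgeR with TMM and DESeq2. The log2 ratio of Psat1 to Phgdh differed between EPS and control by 0.51 (exact two-sided permutation p = 0.8, adjusted p = 0.914) and was -0.18 without control replicate 4. That of Psph to Phgdh differed by 0.05 (exact two-sided permutation p = 0.914), and by -0.43 without the same library.

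Shmt2 encodes the mitochondrial hydroxymethyltransferase that splits serine into glycine and a one-carbon unit. It had 97.5, 125 and 107 CPM in the control libraries and 101, 96.8, 76.7 and 115 CPM in the EPS libraries. The groups overlapped, with EPS replicate 3 the lowest library. The log2 fold change was -0.18 (95% interval -0.57 to 0.21, limma adjusted p = 0.741), and -0.07 without EPS replicate 3. The log2 ratio to Shmt1, which encodes the cytosolic enzyme, differed by -0.04 (exact two-sided permutation p = 0.8). The Shmt1 level, 5.02 to 9.03 CPM, is uncertain, since Shmt1 shares 184 bases with Smcr8 on the opposite strand, which had 48.6 to 103 CPM. Shmt2 shares 32 exon bases with Ndufa4l2 on the opposite strand, which was at 0 to 0.175 CPM.

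Mthfd2 encodes the mitochondrial dehydrogenase and cyclohydrolase that oxidizes the one-carbon unit, an enzyme high in embryonic and dividing cells. It had 82.0, 107 and 74.2 CPM in the control libraries and 60.7, 56.2, 42.3 and 61.4 CPM in the EPS libraries. No EPS library reached the lowest control library. The means were 87.8 ± 17.2 CPM (SD, n = 3) and 55.2 ± 8.86 CPM (SD, n = 4), and the control level was 1.58-fold the EPS level on the log2(CPM + 1) scale. The log2 fold change was -0.66 (SE 0.19, 95% interval -1.09 to -0.23), with an unadjusted limma p of 0.00719 and an adjusted p of 0.219. The exact two-sided permutation test gave p = 0.0571. Without control replicate 4 the log2 fold change was -0.77 and its limma p 0.00478. DESeq2 on the recovered reads, 927 to 1779 per library, gave -0.78 with an adjusted p of 0.0168, and edgeR -0.77 with an adjusted p of 0.0773. The log2 ratio of Mthfd2 to Mthfd1, which encodes the cytosolic counterpart, was 0.54, 1.15 and 0.99 in the control libraries and 0.24, 0.74, 0.0061 and 0.069 in the EPS libraries. Its difference of -0.63 had an exact two-sided permutation p of 0.114 (adjusted p = 0.343), where the smallest p that test can give is 0.0571. EPS replicate 2 lay above control replicate 1.

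**Figure D3:**
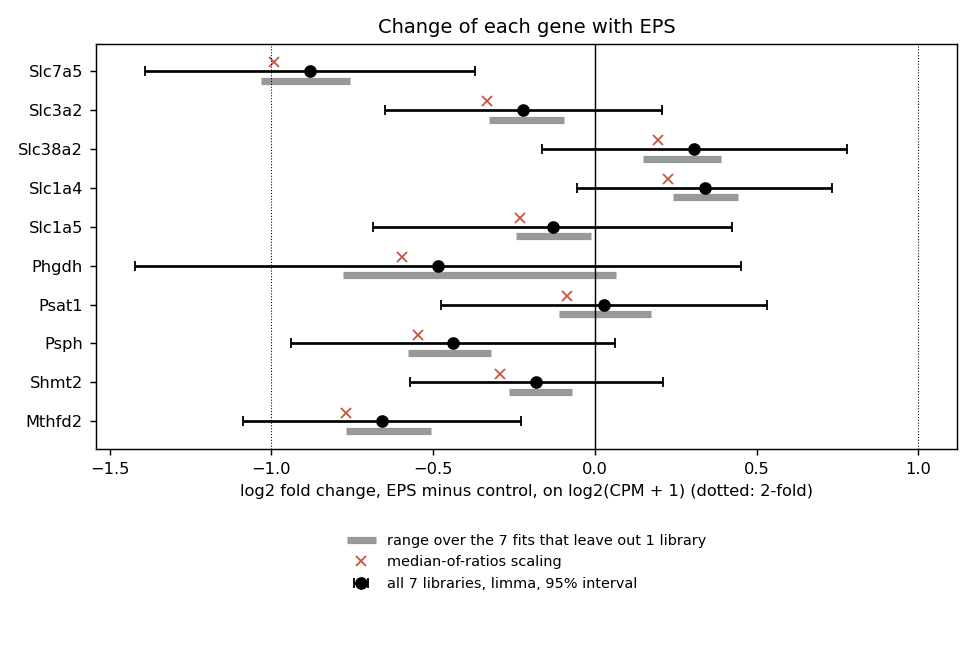
Log2 fold change of each gene, EPS minus control, on log2(CPM + 1): black points and bars are the limma estimate and its 95% interval from all 7 libraries, grey bars the range over the 7 fits that leave out 1 library, and crosses the value after median-of-ratios scaling. The intervals of Slc7a5 and Mthfd2 lie below 0 and those of the other 8 genes include it, and the grey bars of Phgdh and Psat1 cross 0.

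Per kb of transcript the levels could be compared between genes. In the control group the order of mean CPM per kb was Phgdh (151), Slc38a2 (116), Slc3a2 (85.5), Psat1 (79.1), Shmt2 (48.1), Slc7a5 (45.3), Mthfd2 (42.1), Slc1a4 (16.9), Psph (15.0) and Slc1a5 (3.67). Library ranges of neighbours were apart between Psat1 and Shmt2, between Mthfd2 and Slc1a4 and between Psph and Slc1a5, and overlapped for all other neighbours. The first place of Phgdh rested on control replicate 4: without that library Phgdh had a mean of 87.7 CPM per kb and came after Slc38a2 (128) and Slc3a2 (91.7), with the ranges of Slc38a2 and Slc3a2 apart. In the EPS group the order was Slc38a2 (142), Phgdh (94.5), Psat1 (81.3), Slc3a2 (73.6), Shmt2 (42.6), Mthfd2 (26.5), Slc7a5 (24.9), Slc1a4 (21.5), Psph (11.02) and Slc1a5 (3.34). There the ranges of Slc7a5 and Slc1a4 overlapped, the 2 transporters that stood well apart in the control group at 45.3 ± 7.72 and 16.9 ± 2.21 CPM per kb (SD, n = 3). Shmt2 and Mthfd2, consecutive enzymes in the mitochondrial pathway, had ranges that were apart in the EPS group only. Each of these is a comparison of ranges, not a test.

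**Figure D4:**
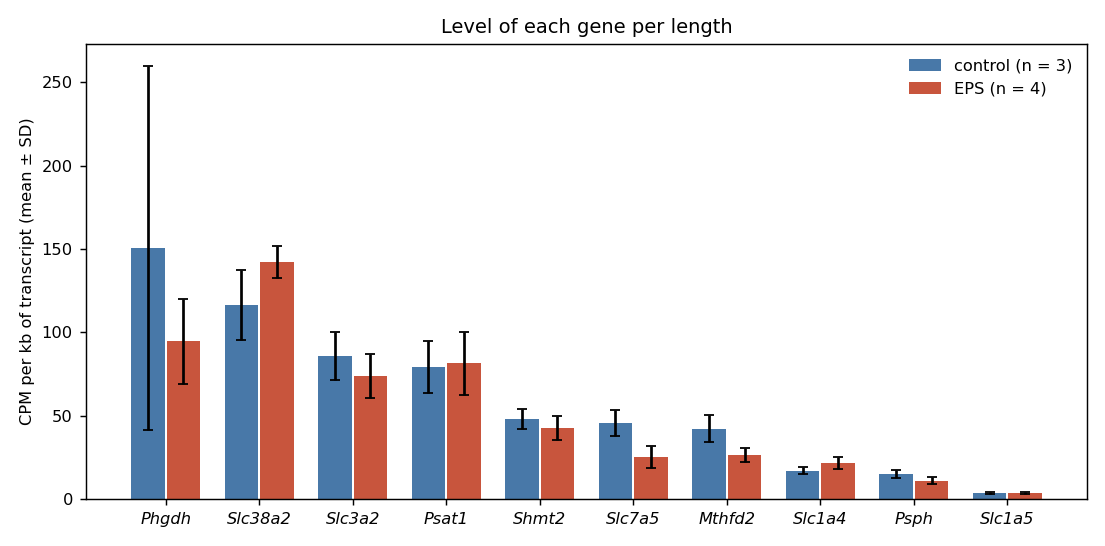
Mean CPM per kb of transcript of each gene in the control (blue, n = 3) and EPS (red, n = 4) groups, with bars for the SD, ordered by the control mean. Slc1a5 is the lowest in both groups and the SD of Phgdh in the control group, 109 CPM per kb, reflects its range of 85.5 to 277 CPM per kb.

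The genes also differed in how they moved among libraries. The 10 genes together took 1560 to 1706 CPM of a control library and 1375 to 1696 CPM of an EPS library. EPS replicate 4 was the highest EPS library for 7 of the 10 genes, and control replicate 3 the highest control library for 7 of 10. Over the 7 libraries, which share the group difference and each library's scaling, Pearson's r of log2(CPM + 1) was 0.83 between Psph and Shmt2, 0.81 between Slc3a2 and Shmt2 and 0.80 between Shmt2 and Mthfd2. It was -0.77 both between Slc38a2 and Phgdh and between Slc7a5 and Slc38a2. The first rested on control replicate 4, the lowest library for Slc38a2 and the highest for Phgdh: without it r was 0.28, and -0.88 between Slc7a5 and Slc38a2, over 6 libraries. For Slc7a5 and its partner Slc3a2 it was -0.07.

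Among the 10469 genes with a mean of at least 5 CPM, those most like each gene by Pearson's r over the 7 libraries were named as a description. For Slc7a5 they were Tgfb3 (0.98), Midn (0.97) and Scml4 (0.97), and for Mthfd2 they were Tubb6 (0.97), Slc39a10 (0.97) and Aacs (0.97). Slc1a4 was most like Prc1 (0.98), Fancd2 (0.98) and Actr1a (0.97). For the remaining transporters the closest were Mcfd2 (0.97) to Slc3a2, Zfp161 (1.00) to Slc38a2 and Abcf2 (0.96) to Slc1a5. For the enzymes they were Pwwp2b (0.99) to Phgdh, Rpn2 (0.97) to Psat1, Prkcd (0.99) to Psph and Lgals3bp (0.95) to Shmt2. The number of genes with r over 0.95 ranged from 1 (Slc1a5, Shmt2) to 84 (Slc38a2), and was at most 6 for 6 of the 10.

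The surrounding pathways were read from lists of genes that are not among the 10. At an adjusted p under 0.05 limma called 0 genes in each of the 6 lists below and 0.141% of all genes. DESeq2 called 8 genes over the lists (Slc1a3, Asns, Gpt, Chac1, Gdf15, Cars, Iars and Rps6kb1) and 3.39% of all genes it gave an adjusted p. Of these, edgeR with TMM called 4 (Slc1a3, Asns, Chac1 and Gdf15), where it called 1.51% of all genes. Without control replicate 4 edgeR called 1 gene over the lists and 0.545% of all genes. The counts of each list at an unadjusted p under 0.05 are to be read against the 8.4% of all genes that were higher and the 3.21% that were lower. Of 26 other amino acid transporters tested, 0 were higher and 1 lower past both thresholds, and 1 was higher and 3 lower at an unadjusted p under 0.05. Over the fits that leave out 1 library these last counts were 0 to 1 higher and 2 to 5 lower. Quantile normalization gave 0 higher and 6 lower, and a pseudocount of 0.1 gave 3 higher and 3 lower. The median log2 fold change of the 26 was -0.01, or -0.24 for the 17 with a mean of at least 1 CPM. The gene past both thresholds was Slc1a3, which encodes the glial-type glutamate and aspartate carrier. Slc1a3 had 31.4, 48.6 and 28.5 CPM in the control libraries and 21.6, 10.2, 12.5 and 15.2 CPM in the EPS libraries. The groups did not overlap, the log2 fold change was -1.24, and edgeR and DESeq2 gave adjusted p of 0.00915 and 7.93e-04. The cationic amino acid carrier gene Slc7a1 was also lower in every EPS library, at 44.0 to 67.8 CPM against 80.5 to 97.6 CPM, with a log2 fold change of -0.53 and an unadjusted limma p of 0.0172. The gene higher at an unadjusted p under 0.05, Slc1a2, had 0 to 5 reads per library. Slc7a7 (-0.44, and -0.27 without control replicate 4) had overlapping groups. The groups of Slc38a6 and Slc38a7 did not overlap either, with log2 fold changes of -0.47 and -0.44. These were -0.41 (unadjusted limma p of 0.0826) and -0.19 without control replicate 4.

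Of 24 other folate, serine and glycine enzymes, none passed both thresholds, and the median log2 fold change was -0.02. At an unadjusted p under 0.05 by limma 1 was higher and 0 were lower, against 8.4% and 3.21% of all genes. Without EPS replicate 3 there were 2 higher. The gene higher with all libraries was Mthfd1l, which encodes the mitochondrial synthetase that follows MTHFD2 and releases formate. Mthfd1l had 30.02, 40.6 and 32.5 CPM in the control libraries and 65.1, 48.2, 58.9 and 50.7 CPM in the EPS libraries. Its log2 fold change was 0.68 (SE 0.17), with an unadjusted limma p of 0.00334, an adjusted p of 0.166, and all EPS libraries above all control libraries. The neighbouring steps Mthfd2 and Mthfd1l therefore had log2 fold changes of opposite sign. The CPM of Mthfd2 was 2.28 to 2.73 times that of Mthfd1l in the control libraries and 0.719 to 1.21 times in the EPS libraries. This pair was set side by side after its values were seen and is given without a test. Aldh1l2, of the same compartment, had a log2 fold change of -0.63 with overlapping groups, which was -0.93 without control replicate 4 (unadjusted limma p of 0.0165) and -0.28 without control replicate 3. Srr had 0.55, and 0.21 without control replicate 4.

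Of 16 other enzymes of non-essential amino acids, 0 were higher and 5 lower at an unadjusted p under 0.05, none passed both thresholds, and the median log2 fold change was -0.25. Asns, which encodes asparagine synthetase, had 97.1, 182 and 96.2 CPM in the control libraries and 81.6, 52.3, 51.8 and 69.2 CPM in the EPS libraries. Every EPS library was lower, with a log2 fold change of -0.92 and an unadjusted limma p of 0.00709. Without control replicate 4 the value for Asns was -1.07 with an unadjusted limma p of 0.00542, past both thresholds, and without control replicate 3, its highest library, it was -0.62. With all libraries edgeR and DESeq2 gave adjusted p of 0.0302 and 0.0098. Bcat1, which encodes the cytosolic branched-chain aminotransferase, and Aldh18a1, which encodes the first enzyme of proline synthesis, were also lower in every EPS library, with log2 fold changes of -0.86 and -0.58. For Bcat1 the groups were barely apart, at 22.20 CPM in EPS replicate 4 against 22.29 CPM in control replicate 4. Its log2 fold change was -0.64 without EPS replicate 2. The other 2 of the 5 were the alanine aminotransferase genes Gpt (-0.56, with an unadjusted limma p of 0.0638 without control replicate 4) and Gpt2 (-0.41). Glud1, for glutamate dehydrogenase, was higher in every EPS library (0.32).

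**Figure D5:**
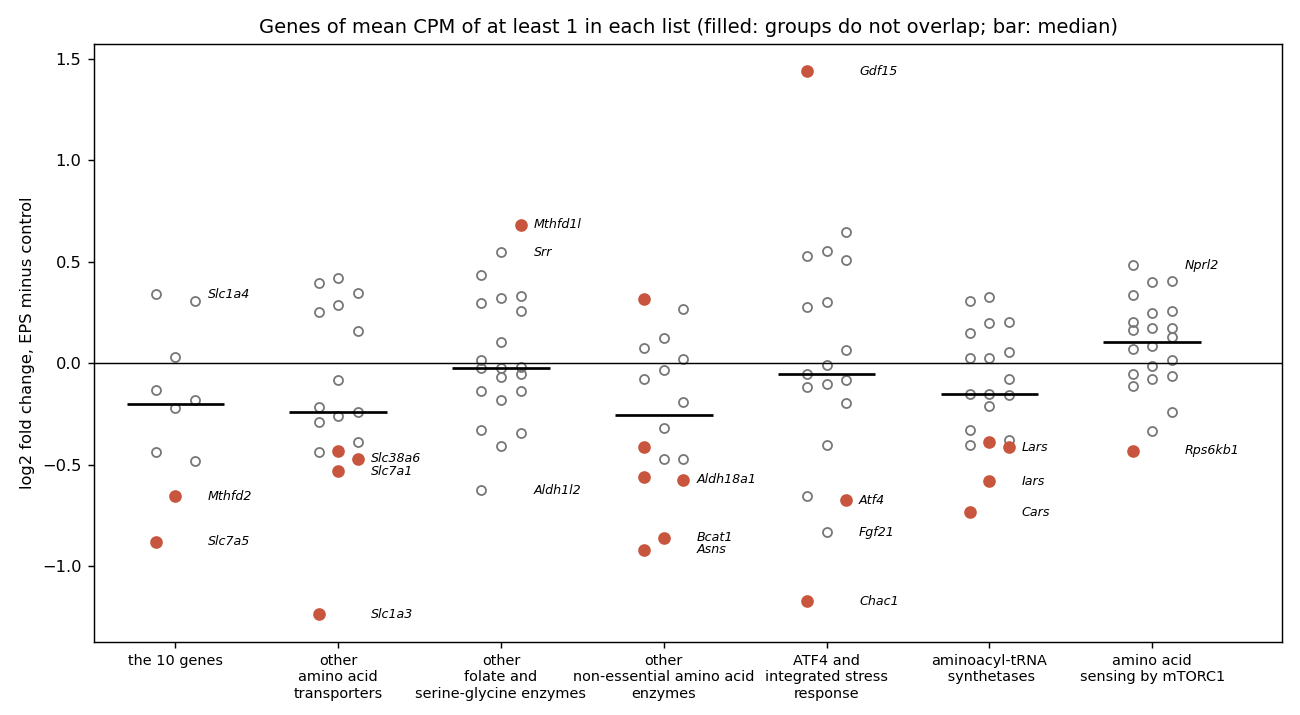
Log2 fold change, EPS minus control, of each gene with a mean of at least 1 CPM in the 10 genes and in 6 lists of related genes, where filled points are genes whose control and EPS libraries do not overlap and the bar is the list's median. Slc7a5 and Mthfd2 lie at the lower end of the 10 genes, and Asns, Chac1, Cars and Iars lie at or near the lower end of their lists.

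Of 19 genes of ATF4 and the integrated stress response, 1 was higher and 1 lower past both thresholds, 2 were higher and 2 lower at an unadjusted p under 0.05, and the median log2 fold change was -0.05. Chac1, which encodes a glutathione-degrading enzyme and is an ATF4 target, had 19.997, 30.7 and 48.5 CPM in the control libraries and 11.3, 19.0, 10.3 and 13.6 CPM in the EPS libraries, a log2 fold change of -1.17. Gdf15, which encodes a secreted stress factor, had 1.05, 2.17 and 1.67 CPM in the control libraries and 3.72, 6.33, 4.11 and 12.7 CPM in the EPS libraries, a log2 fold change of 1.44 on log2(CPM + 1). At this low level the 1 added to each CPM makes the value smaller, and edgeR with TMM and DESeq2 both gave 1.93 for Gdf15. These 2 genes, both textbook targets of the same response, thus moved in opposite directions. Without control replicate 4 neither passed both thresholds, with log2 fold changes of -0.86 and 1.46 and unadjusted limma p of 0.018 and 0.0115. Atf4 itself had 118, 112 and 267 CPM in the control libraries and 105, 101, 77.6 and 97.9 CPM in the EPS libraries. The groups did not overlap, but the log2 fold change of -0.68 was -0.27 without control replicate 4. Ppp1r15a, which encodes the phosphatase subunit that ends the response, was the other gene higher at an unadjusted p under 0.05 (0.55), with overlapping groups. Fgf21 (-0.83) and Trib3 (-0.66) had overlapping groups, and Fgf21 was -0.50 without control replicate 3 and Trib3 -0.41 without EPS replicate 3.

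Of 20 cytosolic aminoacyl-tRNA synthetases, which charge tRNAs with amino acids, 0 were higher and 4 lower at an unadjusted p under 0.05, none passed both thresholds, and the median log2 fold change was -0.15. The 4 were Cars (-0.73), Iars (-0.58), Lars (-0.42) and Yars (-0.39), for cysteine, isoleucine, leucine and tyrosine, and each was lower in every EPS library than in every control library. Cars had 73.7, 58.1 and 91.3 CPM in the control libraries and 47.8, 35.5, 44.1 and 48.1 CPM in the EPS libraries, with an unadjusted limma p of 0.004 and an adjusted p of 0.177, against adjusted p of 0.0553 with edgeR and 0.0157 with DESeq2. Without control replicate 4 there were also 4 at an unadjusted p under 0.05. Of 22 genes of amino acid sensing by mTORC1, 0 were higher and 1 lower at an unadjusted p under 0.05, and the median log2 fold change of 0.11 was near that of all genes. The lower gene was Rps6kb1, which encodes the S6 kinase that mTORC1 phosphorylates, at 71.1 to 81.4 CPM in the EPS libraries against 98.8 to 109.9 CPM in the control libraries with a log2 fold change of -0.43 and a limma adjusted p of 0.229, against 0.231 with edgeR and 0.0393 with DESeq2. Nprl2 (0.48) and Depdc5 (0.41), subunits of a complex that restrains mTORC1, had overlapping groups. Without control replicate 4 they were 0.06 and 0.28, while Nprl2 was 0.74 without control replicate 3 and Depdc5 0.64 without control replicate 1.

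In the annotation of GENCODE M21 on GRCm38 the genes for which the groups did not overlap lie on different chromosomes: Slc7a5 (ENSMUSG00000040010.10) at chr8:121881150-121907694 with 10 exons, and Mthfd2 (ENSMUSG00000005667.8) at chr6:83305691-83325908 with 8 exons, both on the minus strand. Slc3a2 lies at chr19:8706882-8723369 and Psat1 on the same chromosome at chr19:15904678-15947337. The remaining genes are Slc38a2 at chr15:96687392-96699730, Slc1a4 at chr11:20302180-20332713, Slc1a5 at chr7:16781340-16798274, Phgdh at chr3:98313170-98339990, Psph at chr5:129765558-129787449 and Shmt2 at chr10:127517123-127522444. No exon of Slc7a5 or Mthfd2 is shared with another annotated gene.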

How the data were processed

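RNA of C2C12 myotubes was measured in 7 libraries (3 control, 4 EPS). Per the labels, mRNA was isolated by its poly(A) tail, prepared with a directional kit, read as 100 bp pairs and aligned to GRCm38 by STAR 2.5.4b. The authors deposited CPM for each gene and library, which sum to the same total in every library. The read counter, annotation and strand setting are not given in the sources used here. Whether libraries came from separate cultures is not stated, so p-values measure the spread between these libraries.

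The main test was limma 3.58.1 (R 4.3.3, empirical Bayes with a mean trend) on log2(CPM + 1) of the 19144 genes that had any reads, with Benjamini-Hochberg adjustment over all of them. Single genes and ratios were also tested by exact permutation. Whole reads were recovered from 100% of values (tolerance 0.1 read), and edgeR 4.0.16 with TMM and DESeq2 1.42.0 were run on them. The pseudocount (0.1, 0.5), a filter at a mean of 1 CPM, the scaling (quantile, median of ratios), robust variances, a replicate block and the omission of each library were varied; edgeR without control replicate 4 was added after seeing the data. The scripts were tested on simulated data. The genes and lists were chosen with earlier results of these data known. Named genes were the 10 genes, then per list those past a threshold and the 3 with the largest change among those with a mean of at least 1 CPM; further genes of the lists named for non-overlapping groups or an unadjusted p under 0.05 were chosen after their values were seen.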

Additional observations from a re-analysis of the deposited data

Results flagged for a closer look

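Slc38a2 in EPS replicate 3, at 596 CPM, stood apart from the other 3 EPS libraries at 682 to 692 CPM: its gap to the nearest of them was 0.895 of the group's whole range, above the critical value of Dixon's test for 4 samples. Chance gives a gap above that critical value in about 1 in 20 groups of this size, and 10 genes were examined in the EPS group.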

How the results depend on the processing

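Of 180 log2 fold changes of the 10 genes over 18 alternatives, 10 had the opposite sign, all of Phgdh or Psat1. Phgdh was 0.066 without control replicate 4 (-0.78 to 0.066 over the fits that leave out 1 library) and 0.027 with edgeR and TMM without it. Psat1 was -0.068 with DESeq2, -0.054 with edgeR and TMM, -0.17 with edgeR and TMM without control replicate 4, -0.084 with median-of-ratios scaling, -0.030 with quantile normalization and -0.11 to 0.17 over the fits that leave out 1 library. The ratios that changed sign when 1 library was left out were Psat1 to Phgdh (-0.18 to 0.92), Psph to Phgdh (-0.43 to 0.37) and Shmt2 to Shmt1 (-0.16 to 0.040). The cause was not tested.

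The number of the 10 genes lower past both thresholds was 0 to 1 over the fits that leave out 1 library, 1 without EPS replicate 3 and without control replicate 3 (Slc7a5). At an adjusted p under 0.05, DESeq2 called 2 genes and edgeR with TMM 1 gene, against 0 by limma and 0 by edgeR with TMM without control replicate 4. At an unadjusted p under 0.05, 4 genes were lower with DESeq2 and 4 with edgeR and TMM, against 2, and the number higher was 0 to 1 when 1 library was left out, 1 without EPS replicate 2. With a replicate block 1 gene was lower at an unadjusted p under 0.05. The replicate block rests on the number alone: deviations of same-numbered libraries correlated at 0.25, -0.45 and 0.07 over 12256 genes, so the numbers were not taken as pairs.

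Over all genes, the count past both thresholds was 185 higher and 84 lower by limma, 445 and 156 with a pseudocount of 0.1, 329 and 300 with edgeR and TMM, 317 and 268 with DESeq2, 134 and 120 after median-of-ratios scaling and 99 and 62 with the replicate block. Adjusted calls numbered 27 by limma, 290 with edgeR and TMM and 497 with DESeq2. Slc1a5 and Psph, with 145 to 634 reads per library, are the least deeply counted of the 10. With 3 against 4 libraries the two-sided permutation test cannot give a p below 0.0571. Median-of-ratios scaling lowered each of the 10 values by about the shift of 0.10, quantile normalization by unequal amounts, and Psat1 was the only one of the 10 to change sign with either.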
